A study of Mus musculus with 6 samples.

Results

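ChIP-Seq peaks of FLAG-tagged Onecut3 were mapped to 55 mouse genes of DNA replication: the genes of the origin recognition complex (ORC), the loaders and subunits of the MCM helicase, the factors that fire origins and the DNA polymerases and other enzymes of the fork. The genes were chosen by their role in replication, by a rule that uses no peak value, and stand beside 21832 other protein-coding genes of a total of 21887 on the assembled nuclear chromosomes. The cells were mouse embryonic fibroblasts (MEFs) of C57BL/6 mice, which in all libraries carried the p53 KO. Doxycycline at 100 ng/mL induced Onecut3 from a retroviral Tet-One system in the ONECUT3-OE cells, and control cells had no doxycycline. Values come from the peak lists of 3 ONECUT3-OE libraries made with the anti-FLAG M2 antibody (replicates 1, 2 and 3), and the control FLAG library, the IgG library and the input (1 each) were not analysed here. FLAG signal that arises without Onecut3 was therefore not subtracted, and the p53 KO and the fibroblast identity cannot be checked from peaks. The sources do not state that each replicate was a culture of its own, so how well they agree may be technical.

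Replication starts when ORC, with Cdc6 and Cdt1, loads the MCM ring onto DNA before S phase. The Dbf4-dependent kinase Cdc7 and a set of firing factors then let Cdc45 and the GINS complex join MCM, which makes the active CMG helicase. Behind it, DNA polymerase alpha-primase lays down primers, polymerases delta and epsilon extend them on the PCNA clamp, RPA coats the single strands, and Fen1 and Lig1 finish the lagging strand. Many of these genes are transcribed as cells enter S phase, under E2F factors. Onecut3 belongs to the CUT homeobox family of transcription factors, whose binding sites centre on the letters ATCAAT or ATCGAT.

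Replicates 1, 2 and 3 had 31600, 12856 and 24822 peaks, and 5114 regions had a peak in every list (peaks overlapping by at least 1 bp). Such regions are called shared. Each peak carries the authors' fold, which is the ChIP signal over the control background at the summit, and a q-value, which is a p-value adjusted over the genome. The lists do not give read numbers, so the depth is unknown and folds were compared only within a list.

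A shared region lay inside or within 3 kb of 13 of the 55 replication genes (23.6%), beside 11.4% of the other protein-coding genes. These were Orc1 and Orc3 of ORC, Mcm4, Mcm6 and Mcm7 of the helicase, Cdc45 and Gins3 of the CMG complex, the firing factors Dbf4 and Mtbp, the primase subunit Prim2, Rpa1 and Rpa3 of RPA, and the ligase Lig1. The share was above that of the other genes at each distance read. Inside the gene, 11 members (20.0%) had a shared region beside 9.50% of other genes. Within 3 kb of a gene end there were 9 members (16.4%) beside 5.29%, and within 100 kb there were 29 (52.7%) beside 40.6%. The genes were chosen with earlier results of these data known, so these counts are a description and no test was made.

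Of the regions that cover a promoter, those of Mcm7 and Gins3 had the highest folds. The promoters of Gins3, Mcm6 and Mcm7 are printed because each holds a Onecut core within 30 bp of the summits of all 3 lists, and those of Orc3 and Rpa3 because a shared region covers their start without such a core. Each sequence gives the 250 bases before the listed transcription start, read 5′ to 3′ along the gene, from RefSeq on GRCm38.p6. They are chr8:95633309-95633558 on the plus strand for Gins3 and, on the minus strand, chr1:128359706-128359955 for Mcm6, chr5:138171884-138172133 for Mcm7, chr4:34614943-34615192 for Orc3 and chr6:8259142-8259391 for Rpa3. Capitals mark ATCAAT, which reads ATTGAT when it lies on the other strand, and the E2F letters TTTCCCGC or, reversed, GCGGGAAA, with their variant TTTGGCGC or, reversed, GCGCCAAA. They also mark CCAAT, the letters that NF-Y binds, which read ATTGG when reversed, and TTTGAA of the cell cycle homology region. In Mcm6 and Mcm7 the run ATTGATTGG holds a Onecut core and a reversed CCAAT that overlap.
Gins3: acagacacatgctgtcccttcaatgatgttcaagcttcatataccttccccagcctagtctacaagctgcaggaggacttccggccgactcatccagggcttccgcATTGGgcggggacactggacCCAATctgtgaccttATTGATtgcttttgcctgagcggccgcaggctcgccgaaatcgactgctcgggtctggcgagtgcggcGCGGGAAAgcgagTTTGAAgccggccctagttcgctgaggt
Mcm6: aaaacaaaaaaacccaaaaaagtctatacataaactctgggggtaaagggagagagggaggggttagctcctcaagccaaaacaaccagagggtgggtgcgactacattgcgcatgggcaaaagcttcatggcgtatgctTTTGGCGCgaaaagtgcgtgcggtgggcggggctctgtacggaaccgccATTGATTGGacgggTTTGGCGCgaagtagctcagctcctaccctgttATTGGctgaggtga
Mcm7: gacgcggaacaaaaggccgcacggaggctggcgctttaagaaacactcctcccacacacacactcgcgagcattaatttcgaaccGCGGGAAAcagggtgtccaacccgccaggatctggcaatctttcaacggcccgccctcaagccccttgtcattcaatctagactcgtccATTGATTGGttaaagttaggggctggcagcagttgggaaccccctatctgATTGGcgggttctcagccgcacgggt
Orc3: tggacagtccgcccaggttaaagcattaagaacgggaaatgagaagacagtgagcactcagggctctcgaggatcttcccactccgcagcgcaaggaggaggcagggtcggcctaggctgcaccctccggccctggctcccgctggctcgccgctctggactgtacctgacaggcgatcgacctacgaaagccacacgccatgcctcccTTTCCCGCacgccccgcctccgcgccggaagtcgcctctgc
Rpa3: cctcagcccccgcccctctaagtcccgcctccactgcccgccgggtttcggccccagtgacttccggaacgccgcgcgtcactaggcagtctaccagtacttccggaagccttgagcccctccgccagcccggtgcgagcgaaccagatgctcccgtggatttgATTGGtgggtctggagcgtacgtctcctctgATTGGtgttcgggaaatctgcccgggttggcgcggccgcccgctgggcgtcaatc

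The Onecut core of Gins3 began 109 bp before the start, and its centre lay 24, 0 and 22 bp from the summits of replicates 1, 2 and 3. In Mcm7 the core began 76 bp before the start and its centre was 14, 8 and 0 bp from the 3 summits. In Mcm6 it began 61 bp before the start and the distances were 12, 14 and 30 bp. These 3 were chosen for printing by that distance, so it is a description of them. E2F letters stand in the same 250 bases of each. The Orc3 promoter held TTTCCCGC and the Rpa3 promoter held 2 copies of CCAAT, and neither held ATCAAT or ATCGAT. A match of letters is not evidence of a bound site, and its part in the signal was not tested.

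**Figure D1:**
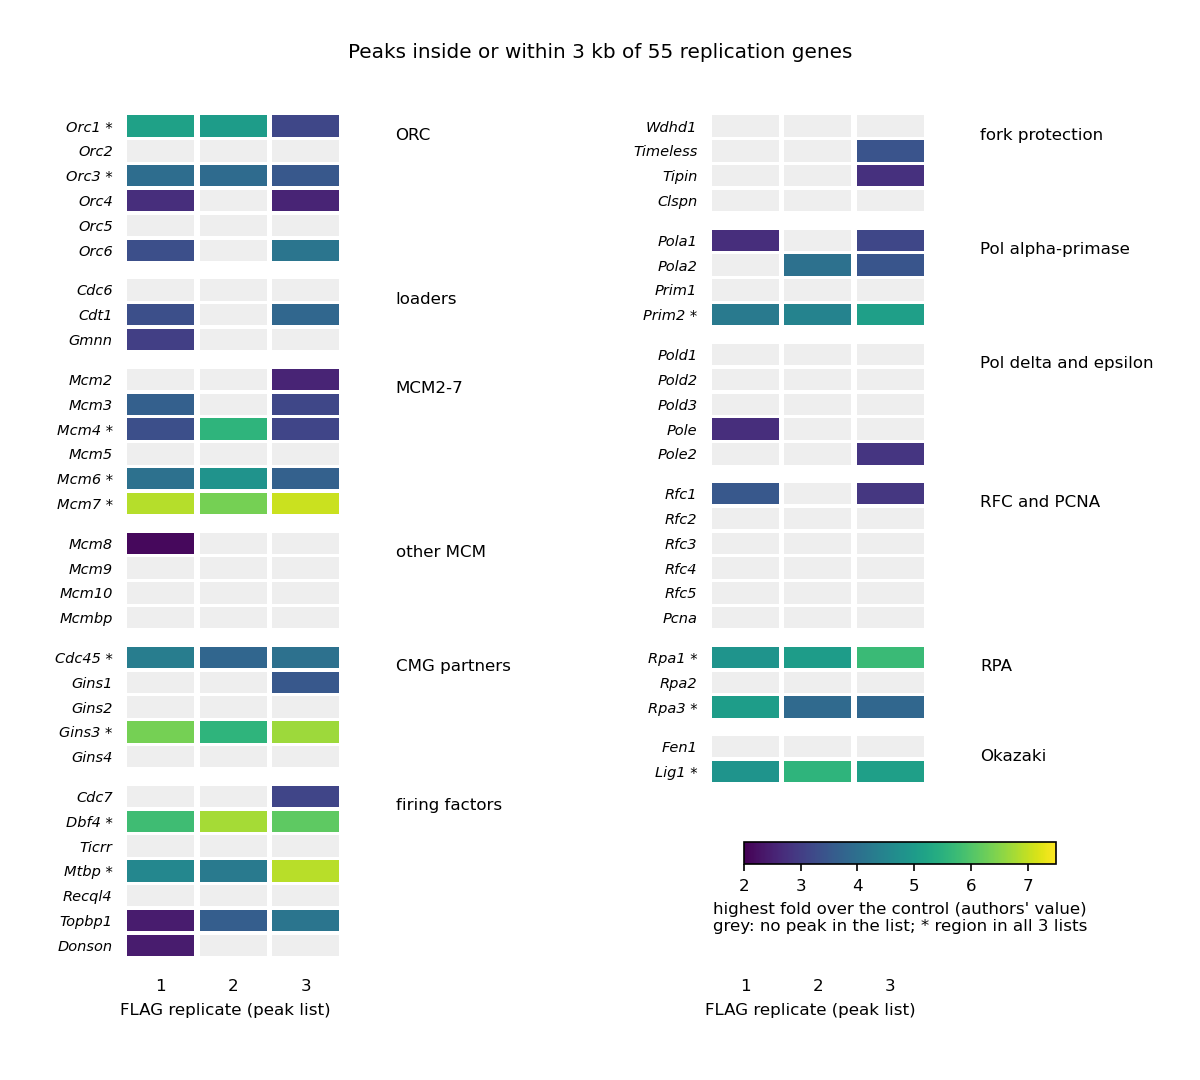
Highest fold over the control (colour) of any peak inside or within 3 kb of each of the 55 replication genes in FLAG replicates 1, 2 and 3 (columns), grouped by complex. Grey marks a list with no peak, and the 13 genes with an asterisk have a region shared by all 3 lists, among which Mcm7, Dbf4 and Gins3 are high in every list.

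ORC marks origins. Of its 6 genes, Orc1 and Orc3 had a shared region. Orc3, a core subunit, had one on its start (chr4:34614720-34615114), with folds of 3.94, 3.90 and 3.50 in replicates 1, 2 and 3. Each was at or below the median of all shared peaks in its list, and these medians were 3.94, 4.18 and 4.05. The median summit lay 10 bp upstream of the Orc3 start and 5 bp from the start of Rars2, a mitochondrial arginyl-tRNA synthetase gene on the other strand. Orc1, the large subunit with ATPase activity, had its region inside the gene (chr4:108590442-108590867), 11.2 kb from the start. Its folds of 5.15 and 5.01 in replicates 1 and 2 stood above the medians, and 3.18 in replicate 3 stood below (q = 0.142). Orc4 had peaks in replicates 1 and 3 at different places, with folds of 2.73 and 2.55, and that of replicate 3 also overlapped Mbd5. Orc6 had a region in replicates 1 and 3 with folds of 3.03 and 4.14 that lay 1845 bp outside the gene, and a peak of replicate 3 alone with a fold of 4.14 whose summit was 2 bp from the start. Both overlapped another gene, Vps35. A further Orc6 peak, of replicate 1 alone, had a fold of 3.33 (q = 0.0673) at 880 bp downstream. Orc2 and Orc5 had no peak inside or within 3 kb.

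The loaders bring MCM to ORC, and none of Cdc6, Cdt1 and Gmnn had a shared region there. Cdt1, which escorts MCM, had a region in replicates 1 and 3 at 1366 bp outside the gene, with folds of 3.33 and 3.82. That region overlapped Aprt, whose start was 2.29 kb from the summit, beside 6.61 kb for Cdt1. Gmnn, the inhibitor of Cdt1, had a peak in replicate 1 alone (fold 3.03), and Cdc6, the ATPase of loading, had none.

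The MCM2-7 ring unwinds DNA, and 3 of its 6 genes had a shared region. Mcm7 carried the highest mean rank of all members (chr5:138171779-138172166), with folds of 6.88, 6.34 and 7.05. Ordered by the mean rank of fold over the lists, it took place 133 of the 5114 shared regions. The pileup behind it was 31 fragments in replicate 1 and 30 in replicate 3, over backgrounds of 3.65 and 3.40. Its median summit lay 74 bp upstream of the Mcm7 start and 64 bp from the start of Ap4m1, an adaptor complex gene on the other strand, and the region covers both starts. Mcm6 had its region on the start as well (chr1:128359594-128359976), with folds of 4.03, 4.83 and 3.68 and a median summit 44 bp upstream. Replicates 1 and 2 were above the median of shared peaks there and replicate 3 was below, and the 3 summits fell within 18 bp, the tightest of the members. Mcm4 had its region 1166 bp outside the gene (chr16:15622274-15622731), with folds of 3.33, 5.57 and 3.13. Only replicate 2 was past a q of 0.05, since q was 0.0673 in replicate 1 and 0.123 in replicate 3. Its summits were also the widest apart of the members, at 163 bp.

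Mcm3 and Mcm2 had peaks near their starts that were not shared. Mcm3 had a region in replicates 1 and 3 with folds of 3.63 and 3.18 at 449 bp upstream, and a peak of replicate 1 alone with a fold of 3.67 at 73 bp upstream. Mcm2 had a peak in replicate 3 alone, with a fold of 2.55 (q = 0.943), 679 bp upstream. Mcm5 had no peak inside or within 3 kb and lay farthest of the members from a shared region, at 2105 kb. Among the MCM relatives, Mcm8 of the recombination helicase had a peak of replicate 1 alone at a fold of 2.12 (q = 1). Mcm9, its partner, Mcm10, which helps to activate CMG, and the MCM-binding protein gene Mcmbp had none.

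Cdc45 and the GINS complex turn the MCM ring into CMG, and 2 of their 5 genes had a shared region. Gins3 had folds of 6.36, 5.57 and 6.69 (chr8:95633282-95633693), all above the medians, and took place 260 of the shared regions. No other gene overlapped it, and the nearest listed start of another gene, Ndrg4, was 43.5 kb from the summit. Its pileup was 20 fragments in replicates 1 and 3, over backgrounds of 2.30 and 2.14, the genome-wide floor below which the background of a list does not fall. Cdc45 had folds of 4.31, 3.79 and 4.04 (chr16:18811496-18811859), with the median summit 254 bp downstream of its start and 576 bp from the start of Ufd1, a gene of the Cdc48 unfoldase adaptor. The region also overlapped Ufd1. Only replicate 1 was above the median, and q was at most 0.05 in all 3 lists. Gins1 had 2 peaks in replicate 3 alone with folds of 3.18 and 3.50, and Gins2 and Gins4 had none.

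Of 7 genes of origin firing, Dbf4 and Mtbp had a shared region. Dbf4, the regulatory subunit of Cdc7 kinase, had folds of 5.80, 6.76 and 6.14 (chr5:8423287-8423653), all far above the medians, and took place 213. The region lay outside the gene, with the summit 770 bp upstream of the Dbf4 start, and inside Slc25a40, a mitochondrial carrier gene whose start was 648 bp away. Mtbp, which with Ticrr brings Cdc45 to origins, had folds of 4.54, 4.25 and 6.90 inside the gene (chr15:55563577-55564077), each above the median of its list. Mtbp also held 4 regions that were not shared, with folds up to 4.14. Topbp1, a scaffold of firing and of the checkpoint, had a region in replicates 2 and 3 with folds of 3.62 and 4.14 at 553 bp upstream of its start. It also had a peak of replicate 3 alone inside the gene (fold 3.82, q = 0.0116) and, beyond its end and over Cdv3, a peak of replicate 1 alone (fold 2.42). Cdc7 itself had only peaks of replicate 3, with folds of 2.85 and 3.13. Donson, a factor of CMG assembly, had only peaks of replicate 1, both with a fold of 2.42 and q = 1, and Ticrr and Recql4 had none. The Donson peak inside the gene also overlapped Son.

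Of the genes of the fork, 4 of 24 had a shared region inside or within 3 kb, and of those of origins and helicase 9 of 31, beside the 11.4% of other genes. No test of that difference was made. RPA, which coats single-stranded DNA, had 2 of 3. Rpa1, the large subunit, had folds of 4.84, 5.01 and 5.73 (chr11:75346988-75347535), all above the medians. The summit was 1.22 kb downstream of its start, with the nearer edge of the region at 0.848 kb, and 1.26 kb from that of Smyd4 on the other strand. Rpa1 also had a peak of replicate 1 alone (fold 4.03), 531 bp upstream of its start and over Smyd4. A peak of replicate 3 alone (fold 3.42) lay beyond its end. Rpa3, the small subunit, had folds of 5.04, 3.87 and 3.82 on its start (chr6:8258933-8259265), of which replicate 1 alone was above its median. The summit was 33 bp downstream of the Rpa3 start and 180 bp from the start of Umad1. Rpa2, the middle subunit, had no peak inside or within 3 kb.

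Lig1, the ligase that seals Okazaki fragments, had a region inside the gene 9.64 kb from its start (chr7:13288725-13289119). Its folds of 4.84, 5.57 and 5.09 were each above the median of its list. Fen1, the flap nuclease of the same step, had none. Prim2, the large subunit of primase, held 2 shared regions inside its 216 kb, each above the median of shared peaks in 1 list and at or below it in 2. The region chr1:33526457-33526778 had folds of 3.63, 4.46 and 2.87, with q = 0.404 in replicate 3. The region chr1:33605439-33605907 had folds of 3.94, 3.35 and 5.09, with q = 0.122 in replicate 2. Prim2 also held unshared regions along its length, the highest with folds of 4.24 and 4.18 in replicates 1 and 2 (chr1:33484886-33485309). Pola2, the accessory subunit of polymerase alpha, had a region in replicates 2 and 3 with folds of 4.02 and 3.45 at 432 bp upstream of its start. Inside Pola2 lay another region of replicates 2 and 3, with folds of 3.51 and 2.77, and a peak of replicate 3 alone with a fold of 3.07. The catalytic subunit gene Pola1, the longest member at 328 kb, held only peaks of replicate 1 or 3 alone, with folds of 2.42 to 3.18, and Prim1, the catalytic primase subunit, had none.

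The 5 member genes of the polymerases that extend the strands had no shared region nearby. None of Pold1, Pold2, Pold3, Pole and Pole2 had a shared region within 100 kb, and the nearest was 158 kb from Pold3. Pole had a peak in replicate 1 alone (fold 2.73) and Pole2 in replicate 3 alone (fold 2.85). Of the clamp Pcna and the 5 genes of its loader RFC, only the large subunit gene Rfc1 had peaks inside or within 3 kb, each in a single list with folds of 2.55 to 3.49. Of the 4 fork protection genes, Timeless had a peak of replicate 3 with a fold of 3.42 and its partner Tipin a peak of replicate 3 with a fold of 2.76, while Wdhd1, which ties polymerase alpha to CMG, and Clspn, the checkpoint mediator, had none. The Timeless peak overlapped Mip, whose start was 5.77 kb from the summit, beside 6.48 kb for Timeless. By complex, 7 of 12 groups had at least 1 member with a shared region. The 5 groups without any (the loaders, the other MCM genes, fork protection, polymerases delta and epsilon, and RFC with PCNA) hold 22 genes, of which 8 had a peak in some list. Of all other genes, 45.4% had such a peak inside or within 3 kb (9920 of 21832), and 2495 of these had a shared region. The 22 genes have none by choice of the groups, so the 8 cannot be read against that share. The count of groups has no share of other genes beside it.

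**Figure D2:**
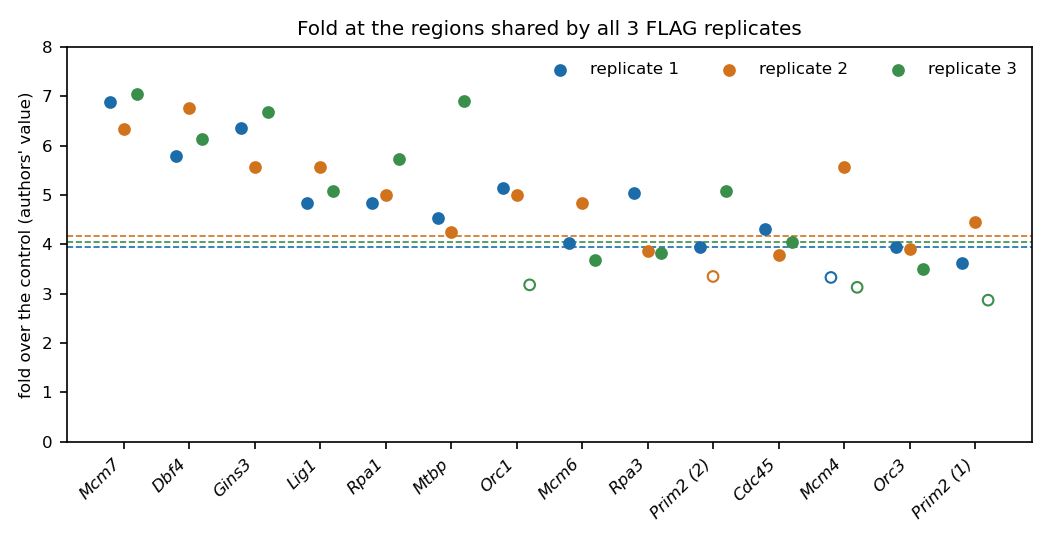
Fold over the control (y axis, authors' value) of the 14 shared regions at 13 replication genes in replicates 1, 2 and 3, ordered by the mean rank of fold within the lists, with Prim2 numbered by position. Filled points have q at most 0.05, open points do not, and dashed lines are the medians of all shared peaks in each list (3.94, 4.18 and 4.05). The regions of Mcm7, Dbf4, Gins3, Mtbp, Rpa1 and Lig1 lie above the line in every list.

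Across the 14 shared regions the folds ran from 3.33 to 6.88 with a median of 4.69 in replicate 1, from 3.35 to 6.76 with a median of 4.92 in replicate 2, and from 2.87 to 7.05 with a median of 4.56 in replicate 3. All 3 medians were above those of all shared peaks. Above the medians in every list were 6 of the 14 (42.9%), namely those of Mcm7, Dbf4, Gins3, Mtbp, Rpa1 and Lig1, beside 23.9% of all 5114 shared regions. A q of at most 0.05 in every list was met by 10 of the 14 (71.4%), beside 57.0% of all. The 4 that missed it were those of Mcm4 and Orc1 and both of Prim2. The 3 summits lay within 100 bp of each other in 11 of the 14, which was not counted over all 5114 shared regions. With that limit, 11 members had a shared region inside or within 3 kb, beside 9.05% of other genes. Without it there were 13 beside 11.4%. Pileups behind the 14 were 10 to 31 fragments in replicate 1 and 8 to 30 in replicate 3, so the lower regions rest on few fragments. In replicate 1 the background at 5 of the 14 was above the floor and in replicate 3 at 6, beside 48.4% and 48.2% of all shared peaks.

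Beside the shared regions, the members held 51 regions that were not shared, 40 of them in 1 list and 11 in 2. Their folds reached 4.24 in replicate 1, 4.18 in replicate 2 and 4.14 in replicate 3. Counting any list, 31 members (56.4%) had a peak inside or within 3 kb, beside 45.4% of other genes. Of these members 18 had only unshared ones, and the other 13 are those with a shared region. Among the 21832 other genes, 9920 had a peak in any list and 2495 of them a shared region. The any-list contrast is therefore not separate from that of the shared regions. By list, 24 members (43.6%) had a peak in replicate 1 beside 35.5%, 15 (27.3%) in replicate 2 beside 21.2%, and 27 (49.1%) in replicate 3 beside 31.3%. Replicate 2, with the fewest peaks, was thus met at 13 members that all have a shared region and at Pola2 and Topbp1.

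**Figure D3:**
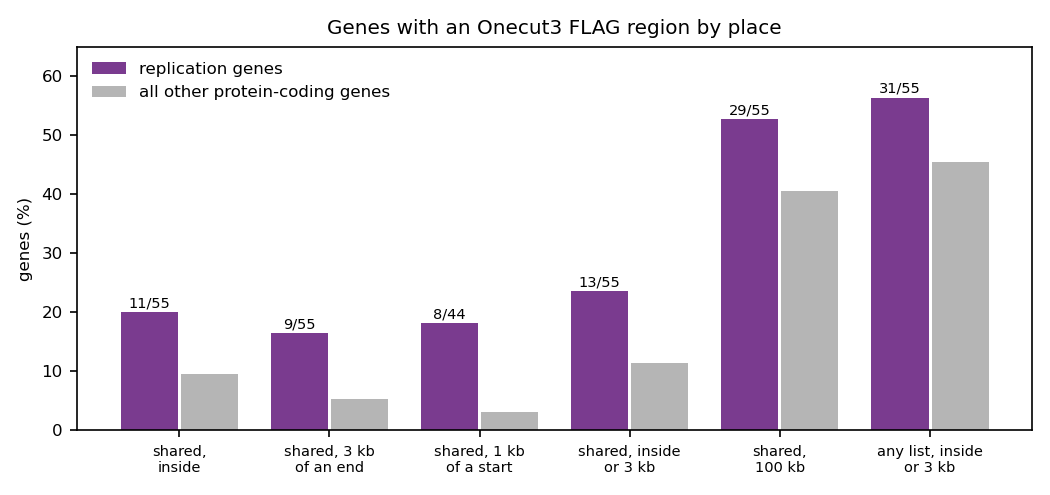
Share of genes (%) with a region by its place relative to the gene, for the replication genes (purple, with the count above each bar) and all other protein-coding genes (grey). The replication genes are higher in each class, from 20.0% beside 9.50% inside the gene to 56.4% beside 45.4% for a peak in any list. For starts, 44 of the 55 genes have a listed start.

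The contrast with other genes was widest at transcription starts, which RefSeq promoters give for 44 of the 55 members. A shared region reached within 1 kb of the start of 8 of them (18.2%), namely Cdc45, Dbf4, Gins3, Mcm6, Mcm7, Orc3, Rpa1 and Rpa3, beside 3.11% of 17448 other genes. With a peak in any list there were 14 (31.8%) beside 12.9%, the added ones being Donson, Mcm2, Mcm3, Orc6, Pola2 and Topbp1. The nearest listed start was used where a gene has several. At 5 of the 8 (Gins3, Mcm6, Mcm7, Orc3 and Rpa3) the median summit was under 100 bp from the start. That share was not counted for the other genes bound there. Mcm4, Mtbp and Prim2 have no listed start, and Lig1 and Orc1 were bound only farther inside.

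**Figure D4:**
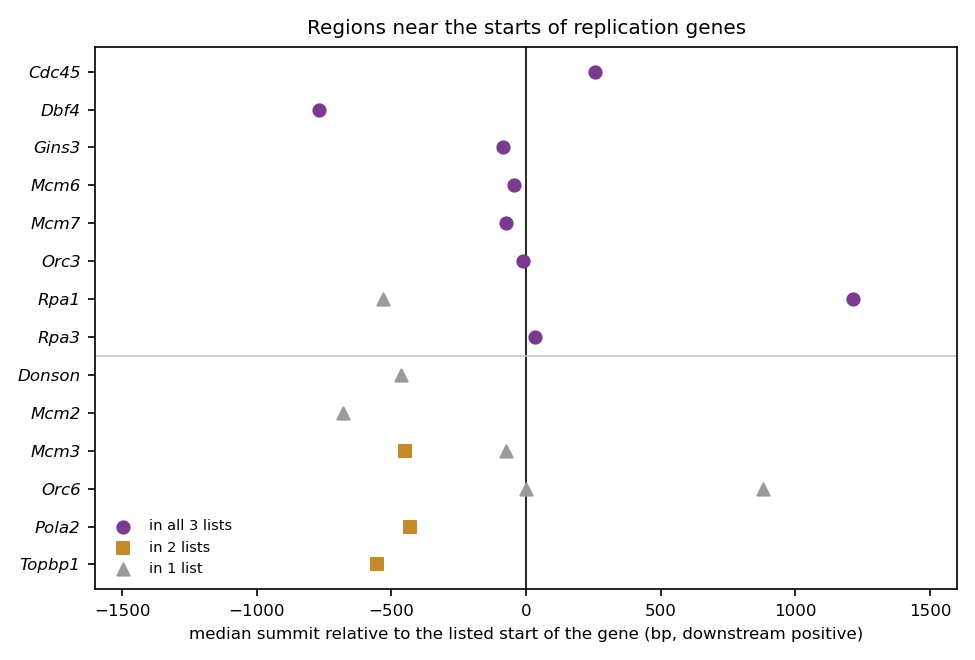
Median summit of each region near the listed start (x axis, bp, downstream positive) at the 14 replication genes with a peak within 1 kb of it. Circles are regions shared by all 3 lists, squares are in 2 lists and triangles in 1, and the circles of Gins3, Mcm6, Mcm7, Orc3 and Rpa3 gather at the start while Dbf4 and Rpa1 lie farther off.

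Many of the bound starts faced the start of another gene. A start on the opposite strand lay within 1 kb at 6 of the 8 members bound at the start (75.0%), where the partners were Ufd1 for Cdc45, Slc25a40 for Dbf4, Ap4m1 for Mcm7, Rars2 for Orc3, Smyd4 for Rpa1 and Umad1 for Rpa3. The starts of a pair were 15 bp (Orc3 and Rars2) to 322 bp (Cdc45 and Ufd1) apart. Of the other genes bound within 1 kb of a start, 21.0% had such a partner. Facing starts were also more frequent among replication genes as such, at 11 of 44 (25.0%) beside 9.57% of other genes. Of those 11, 6 were bound (54.5%), beside 6.83% of other genes with a facing start. Of the 33 members with no facing start, 2 were bound (6.06%), Gins3 and Mcm6, beside 2.71%. Lig1, Orc1, Orc4, Fen1 and Wdhd1 have a facing start and no shared region within 1 kb of it. For the 6 pairs, a peak list cannot say which of the genes a region belongs to.

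In the 300-base promoter windows (250 bases before and 50 after the start, both strands), ATCAAT was found in 6 of 44 members (13.6%), beside 7.63% of other genes and 7.54% of all 32851 promoters. Its carriers were Cdc45, Gins3, Mcm6, Mcm7, Prim1 and Timeless. ATCGAT was found in none of the 44, beside 1.00% of other genes and 0.93% of all promoters. Either core was present in 4 of the 8 members bound at the start and in 2 of the 36 not bound. At Cdc45 the region ended 113 bp from the start, outside that window, so its core was not under the peak. Over all genes, either core was in 37.1% of the 348 windows that a shared region overlaps and in 6.84% of those it does not. These windows were sorted by overlap and the members by a region within 1 kb of a start, so the 2 counts are not alike.

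The E2F letters TTTCCCGC or TTTGGCGC were present in more members than Onecut cores were, at 15 of 44 (34.1%) beside 2.23% of other genes and 1.56% of all promoters. They were in 4 of the 8 members bound at the start (Gins3, Mcm6, Mcm7 and Orc3) and in 11 of the 36 not bound, among them Cdc6, Cdt1, Mcm3 and Mcm5. The windows under shared regions of all genes held them in 5.75%, beside 1.96% of other windows. CCAAT was in 25 members (56.8%), beside 42.3% of other genes and 37.4% of all promoters, and in 6 of the 8 bound at the start and 19 of the 36 not bound. Over all genes, the windows under shared regions held CCAAT in 62.9%, beside 37.8% of other windows. TTTGAA was in 7 members (15.9%), beside 18.5% and 17.9%. Here too the members were sorted by a region within 1 kb of a start and the windows by overlap. These are matches of letters in these windows only.

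Gene length bears on any count inside genes. Members had a median length of 22.1 kb (3.21 to 328) and other genes 17.1 kb. Per length, members held 12 shared regions in 1.95 Mb of gene bodies, or 6.14 per Mb, beside 2.63 per Mb in the other genes. This rate does not remove length, since several of the 12 lie at starts and other genes run up to 2390 kb. The 13 bound members had a median length of 31.5 kb and the 42 others 20.5 kb, while bound genes outside the list had 59.4 kb and the rest 15.1 kb. The bound members were thus shorter than other bound genes, and Rpa3, at 3.21 kb, is the shortest member. The median distance from a member to the nearest shared region was 93 kb, beside 152 kb for other genes. That distance moves with the number of lists asked for, and was 54.5 kb without replicate 1, 42.2 kb without replicate 2 and 58.3 kb without replicate 3, beside 113, 76.1 and 100 kb for other genes.

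Farther out, 16 members had their nearest shared region at 3 to 100 kb and 26 had it beyond 100 kb. The nearest of the 16 were Mcmbp at 4.25 kb and Clspn at 6.24 kb, just outside the 3 kb window, while Dbf4 at 562 bp and Mcm4 at 1166 bp were the outermost inside it. Cdc6, with no peak inside or within 3 kb, lay 23.9 kb away and Fen1 22.0 kb away with 5 shared regions within 100 kb. At these distances neighbouring genes share regions.

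A list of 29 other replication genes took in chromatin assembly, nucleotide supply, clamp exchange and fork repair. It also held Pold4, Pole3 and Pole4 of polymerases delta and epsilon, Dna2, Rnaseh2a, Rnaseh2b, Rnaseh2c, Top1 and Top2a. Of the 29, 7 had a shared region inside or within 3 kb (24.1%), beside 11.4% of the genes outside the 55. These were Asf1b and Chaf1a, which hand histones to new DNA, Ssrp1 of the histone chaperone FACT, Chtf18 of the alternative clamp loader, Dtl, which targets Cdt1 for destruction, and the fork repair partners Mms22l and Tonsl. The region at Asf1b (chr8:83955068-83955535), 451 bp from its start, had folds of 11.6, 9.80 and 9.98, above those of every member. At Chtf18 the folds were 4.24, 5.29 and 7.32 at 137 bp from the start, at Chaf1a 2.17, 5.55 and 3.82 at 198 bp, and at Ssrp1 3.07, 5.55 and 3.45 at 58 bp. The first was above its medians in every list, and the latter pair only in replicate 2. Within 100 kb there were 17 of the 29 (58.6%), beside 40.6%.

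The count of 13 bound members rests in part on weak peaks. With only peaks at −log10 q of at least 1.3, which is a q of about 0.05, it was 10, without Mcm4, Orc1 and Prim2, beside 7.53% of other genes, and with −log10 q of at least 5 it was 3 (Dbf4, Gins3 and Mcm7), beside 1.53%. Leaving out the olfactory and vomeronasal receptor genes, an alternative chosen after seeing the data, raised the share of other genes from 11.4% to 12.2%.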

How the data were processed

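FLAG ChIP-Seq peak lists of 3 ONECUT3-OE replicates on GRCm38 were used. Bowtie2 2.2.6, MACS2 2.1.0 and deepTools 3.3.2 stand in the submitters' processing notes, and peak names point to calling per replicate with the input as control. The deposited lists give for each peak a fold (a ratio of ChIP pileup to background, with 1 added to each), the −log10 of its p-value and of its q-value, a score made from the p-value and the summit. Folds depend on depth, which is unknown. Whole-number pileups were solved from the authors' fold and p within 0.001 in −log10 p, for 100.0% of peaks in replicates 1 and 3 and 0.179% in replicate 2, whose pileups are therefore not given.

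Peaks were merged at an overlap of 1 bp. Gene spans, starts and promoters came from RefSeq tables of GRCm38.p6. Of the 55 members, 44 have a listed promoter. Exons were not used here. Members with a shared region inside or within 3 kb are described in each list, those with unshared peaks are named by complex, the others are counted or named when under 10 kb away, and distances of a few others were added after their values were seen. The members and lists were chosen with earlier results of these data known, so no test was made. Alternatives were peaks with −log10 q of at least 1.3 or 5, overlaps of 50% or summits within 100 bp, other windows, and leaving out each replicate. Scripts were tested on simulated data and run in Python 3.11.15 (pandas 2.3.3, numpy 2.4.6, matplotlib 3.10.9, scipy 1.17.1).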

Additional observations from a re-analysis of the deposited data

How the results depend on the processing

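Of 69 values under alternatives for 9 counts and medians, 53 stayed near the reported value and 16 moved, where near means within 1.5 times for counts and, for the density and the median distance, within 1 SD of the values from single replicates. Within these limits members with a peak in any list still fell from 31 to 21 with −log10 q of at least 1.3. The share of other genes fell from 45.4% to 29.6%. With −log10 q of at least 5, members with a shared region fell to 2 inside, 3 within 3 kb of an end, 3 inside or within 3 kb and 6 within 100 kb, beside 1.21%, 0.852%, 1.53% and 7.29% of other genes. At that limit 9 members had a peak in any list (8.29% of other genes), 3 complexes and 1 of the 29 other replication genes had a shared region, and members held 1.02 shared regions per Mb beside 0.261. Counting listed starts only, in place of whole genes, gave 8 of the 44 members that have one, beside 4.32%. The 11 members without a listed start could not be counted there. The median distance to a shared region was 188 kb with −log10 q of at least 1.3, 1054 kb with at least 5, 116 kb with an overlap of 50% and 124 kb with summits within 100 bp, beside 251, 1580, 188 and 207 kb for other genes. Leaving out a replicate gave 42.2 to 58.3 kb. Members inside or within 3 kb were then 15, 16 and 13 without replicates 1, 2 and 3, beside 13.8%, 17.2% and 14.7% of other genes. Inside the gene they were 12, 11 and 11 of the 55, beside 11.3%, 14.5% and 12.2%. There all 3 lists gave 11 (20.0%) beside 9.50%. Near and moved were judged without the shares of other genes. Without replicate 1 the added members were Pola2 and Topbp1, and without replicate 2 Cdt1, Mcm3 and Orc6. With fewer peaks or a stricter overlap fewer regions are shared, and with 2 lists more are. The lists do not give depth, so absence of a peak does not show absence of binding. No paired analysis was possible because only 1 group has peak lists here.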
